A study of Mus musculus with 10 samples.

Results

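The Notch ligands, receptors and targets are 10 genes chosen by name: Jag1, Dll1, Notch1, Notch2, Notch3, Hes1, Hes5, Hey1, Dtx1 and Dtx4. All 10 were found among the 50763 genes of the count table, each as 1 row. Lens epithelia came from wild-type (WT) mice (3 libraries), from transgenic OVE853 mice (3 libraries) and from transgenic OVE918 mice (4 libraries), all 3 weeks old and on the FVB/N background. Both transgenic families carry a secreted, constitutively active human TGF-β1 driven by the αA-crystallin promoter, which is active in lens cells, and the epithelia of both families had anterior subcapsular plaques, the fibrotic opacity under the front capsule of the lens. Each library was made from tissue pooled from up to 9 mice (WT and OVE853) or up to 7 mice (OVE918), so that the spread between libraries is a spread between pools and not between single mice. Per the study's methods, the mice of each grouping were inbred and homozygous and came from different litters, with males and females equally distributed. Each family is 1 transgenic line. No group received a treatment.

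Notch is a cell surface receptor that is activated by ligands of the Jagged and Delta families on a neighbouring cell. Binding exposes the receptor to cleavage first by ADAM proteases and then by γ-secretase, and the freed intracellular domain joins the DNA-binding protein RBPJ and Mastermind coactivators to switch on target genes, among them the HES and HEY repressors and Deltex. In the lens, Notch signaling keeps epithelial cells at the front of the lens proliferating, and Jag1, made mainly by differentiating fiber cells, is needed for fiber cell development. The comparisons below address whether an excess of active TGF-β1 in this tissue went with a change in the ligands, the receptors or the read-out genes of the pathway.

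Promoter sequences are shown for the ligands, which differed from WT in opposite directions in OVE918, and for Hes5, the member with the largest fold change. They are the 250 bases ahead of the annotated start site, taken from RefSeq on build GRCm38.p6, which is an older build than the GRCm39 of the counts. Of the 10 members, 7 had such a window, with a pair of alternative starts for Dll1 (8 windows in all), whereas Hes1, Hey1 and Dtx4 had none. Each window was searched on both strands for GTGGGAA, the sequence bound by RBPJ, for CACNAG, the N box bound by HES repressors, and for CAGACA, a SMAD element, and matches are in capitals. These motifs do not overlap one another in the windows shown.
Hes5, chr4:154960673-154960922, plus strand: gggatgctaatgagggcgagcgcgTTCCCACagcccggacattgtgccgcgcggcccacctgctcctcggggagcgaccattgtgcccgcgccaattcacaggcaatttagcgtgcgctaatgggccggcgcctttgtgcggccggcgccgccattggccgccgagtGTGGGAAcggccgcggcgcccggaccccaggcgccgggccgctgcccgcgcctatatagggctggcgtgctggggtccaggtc
Jag1, chr2:137116521-137116770, minus strand: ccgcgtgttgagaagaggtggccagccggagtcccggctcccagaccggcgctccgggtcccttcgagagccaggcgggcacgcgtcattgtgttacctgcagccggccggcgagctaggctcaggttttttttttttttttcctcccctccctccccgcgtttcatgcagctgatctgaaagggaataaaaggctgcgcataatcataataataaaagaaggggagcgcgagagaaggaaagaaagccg
Dll1, first window, chr17:15375824-15376073, minus strand: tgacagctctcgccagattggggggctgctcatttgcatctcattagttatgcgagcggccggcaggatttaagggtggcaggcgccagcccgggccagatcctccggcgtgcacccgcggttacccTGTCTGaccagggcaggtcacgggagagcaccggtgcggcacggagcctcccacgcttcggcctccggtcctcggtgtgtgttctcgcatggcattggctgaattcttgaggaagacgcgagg
Dll1, second window, chr17:15376933-15377182, minus strand: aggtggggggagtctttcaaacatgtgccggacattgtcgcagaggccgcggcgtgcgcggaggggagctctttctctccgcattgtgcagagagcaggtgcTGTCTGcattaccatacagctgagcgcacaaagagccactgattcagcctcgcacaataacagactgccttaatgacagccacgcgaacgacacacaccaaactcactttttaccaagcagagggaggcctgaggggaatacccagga
The Hes5 window held GTGGGAA at 2 places, starting 226 bases (minus strand, printed as its reverse complement) and 83 bases (plus strand) ahead of the start site. Among all 32851 windows of this length, 5.42% held GTGGGAA at least once and 0.161% at least 2 times (53 windows). The Dll1 windows each held CAGACA on the minus strand relative to the gene, 123 and 148 bases ahead of their starts, as did 17.1% of all windows. The Jag1 window held none of the 3 motifs. Of the windows not shown, those of Notch1, Notch2, Notch3 and Dtx1 held CACNAG, which 36.7% of all windows held. A match is a description of the letters only.

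Library totals were 24073311 to 28645174 counts in WT, 27409730 to 31908525 in OVE853 and 25342220 to 28562553 in OVE918. Tgfb1, the gene of the transgene, was at 50.6 to 61.7 CPM (counts scaled to library size) in WT, 338.7 to 361.3 in OVE853 and 715.4 to 880.7 in OVE918, so that every library matched its label, although human transgene reads are counted here only as far as they align to the mouse gene. The lens markers Pax6, Foxe3 and Cryaa were present in every library, and the summed level of 8 lens epithelium markers was 153702 to 158948 CPM in WT, 104412 to 118930 in OVE853 and 128905 to 196083 in OVE918. Nearly all of that sum was Cryaa (114489 to 118703 CPM in WT) and Cryab, so that it does not by itself measure epithelial content. The paper states that the transgene, under the αA-crystallin promoter, is overexpressed in fiber cells as well as in the epithelium. The lens transcription factor Pax6 was at 430 to 463, 435 to 473 and 356 to 402 CPM, Foxe3 at 424 to 764, 724 to 836 and 513 to 651, and the adhesion gene Cdh1 at 258 to 395, 171 to 227 and 192 to 277, and 0 of the 8 markers were DEGs in any comparison. Markers of other eye tissues were also present and moved with the groups. The summed level of 7 measured markers of the non-pigmented ciliary epithelium was 643 to 1147 CPM in WT, 239 to 299 in OVE853 and 58.5 to 130 in OVE918. That of 9 Müller glia markers was 3673 to 5639 CPM in WT, 2149 to 2501 in OVE853 and 2523 to 3011 in OVE918. WT replicate 3 and OVE918 replicate 4 are described singly here, a choice made after seeing the data. WT replicate 3 held 1232 CPM of 12 retinal neuron markers, against 172 and 180 in the other WT libraries, 46.5 to 108 in OVE853 and 40.7 to 197 in OVE918, and it was the WT extreme for 9 of the 10 members, the highest for 4 and the lowest for 5. OVE918 replicate 4 was the lowest OVE918 library for 6 members and held 47075 CPM of 12 lens fiber markers, the most of any library, next to 44855 CPM in OVE918 replicate 1. It did not stand apart within its group. By chi-square per degree of freedom, OVE918 replicates 1 and 4 were the closest pair (21.8). The largest values were those of replicate 2 against replicates 1 and 4 (103.6 and 129.0, and 43.3 against replicate 3). Replicate 2 held 17499 CPM of the fiber markers. In groups this small each library is the highest or lowest for many genes, and the shares over all genes were not counted. The counts of extremes are therefore descriptions only. Values without WT replicate 3 or OVE918 replicate 4 are given beside the results that they move.

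The levels of the members were compared per exon length as FPKM (fragments per kilobase of exon, scaled to library size). In WT epithelium the order of mean FPKM was Hes1 (62.5), Hes5 (52.9), Jag1 (18.3), Notch2 (15.8), Hey1 (12.9), Dtx1 (7.86), Notch1 (6.82), Dll1 (5.12), Dtx4 (4.00) and Notch3 (1.77). The ranges of the 3 WT libraries overlapped between most neighbours in this order. They were apart between Hes5 (34.3 to 73.1) and Jag1 (9.82 to 24.6), between Notch1 (6.14 to 7.54) and Dll1 (4.76 to 5.41), and between Dtx4 (3.50 to 4.83) and Notch3 (0.609 to 2.60). The place of Hes1 depends on the exon length used, since its FPKM in WT was 62.5 with the exons of its primary transcripts (1528 bases) and 28.3 with those of all its transcripts (3376 bases), which puts it below Hes5 (49.4 with all transcripts). Notch1 and Dll1 were no longer apart with the exons of all transcripts, at 4.09 to 5.03 and 3.91 to 4.43 FPKM in WT, while Dtx4 (3.15 to 4.35) and Notch3 (0.546 to 2.33) were still apart. In both transgenic lines Jag1 had the highest mean FPKM of the set (41.4 in OVE853 and 35.8 in OVE918), ahead of Hes1 (32.9 and 28.6) and Notch2 in OVE853 (21.4) or Hes5 in OVE918 (19.3). The ranges of Jag1 and Hes1 overlapped in both lines, and in OVE918 replicate 4 Hes1 (31.2) was above Jag1 (22.1). With the exons of all transcripts Jag1 still had the highest mean (39.9 and 34.6). Hes1 (14.9 and 13.0) was then below Hes5 (15.9 and 18.1) in both lines and below Notch2 (20.9) in OVE853.

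**Figure D1:**
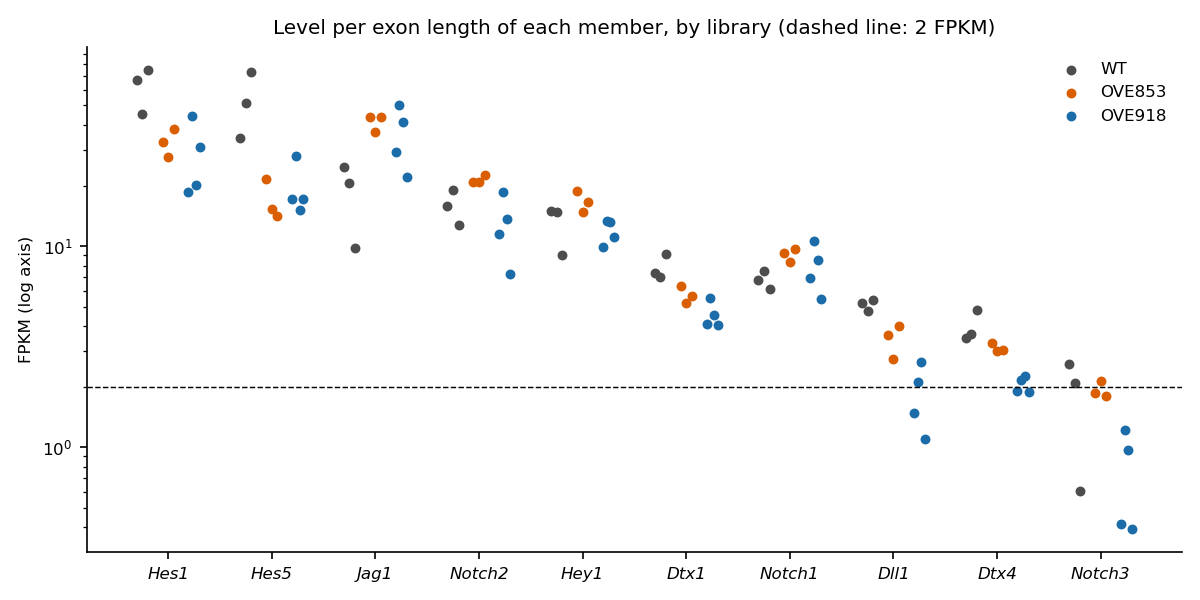
FPKM of each member on a log axis, 1 point per library, ordered by the WT mean; the dashed line marks the 2 FPKM used as the minimum for testing. Jag1 lies below Hes1 in all 3 WT libraries, whereas Notch3 reached the line in 3 of 10 libraries.

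Of the 10 members, 9 reached 2 FPKM in at least 5 of the 10 libraries and were tested together with all other such genes (11094 in all) with edgeR (quasi-likelihood test), and p-values were adjusted by the Benjamini-Hochberg method (FDR). A gene was called a differentially expressed gene (DEG) at an FDR of at most 0.05 and a log2 fold change of at least 1 in size. Notch3 reached 2 FPKM in only 3 libraries, and its values come from the same model run with edgeR's filterByExpr, which keeps 18058 genes. In OVE853 against WT, 2 of 9 tested members were DEGs, both lower (Hes5 and Hes1), where 4.43% of all tested genes were DEGs and 1.91% were lower DEGs. In OVE918 against WT, 4 of 9 were DEGs, 3 lower (Dll1, Hes5 and Hes1) and 1 higher (Jag1), where 5.59% of all tested genes were DEGs, 3.01% lower and 2.58% higher. Without the fold minimum, 4 members passed the FDR limit in OVE853, all lower, and 6 in OVE918, 5 lower and 1 higher, where 15.8% of all tested genes (7.68% lower) and 19.0% (11.0% lower, 8.00% higher) did. The median log2 fold change of the 9 members was -0.45 in OVE853 and -0.71 in OVE918, beside -0.01 and 0.01 over all tested genes. The members were chosen with earlier results known, and the paper names Jag1, Dll1, Hes1, Hes5, Dtx1 and Dtx4 as changed in these same libraries. Their counts and median are therefore descriptions and no test of the pathway. The transgenic groups are compared with the same WT libraries, so that their values are given side by side and are not independent of each other. RNA came from bulk tissue, in which fewer cells of a type and less RNA per cell cannot be told apart.

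**Figure D2:**
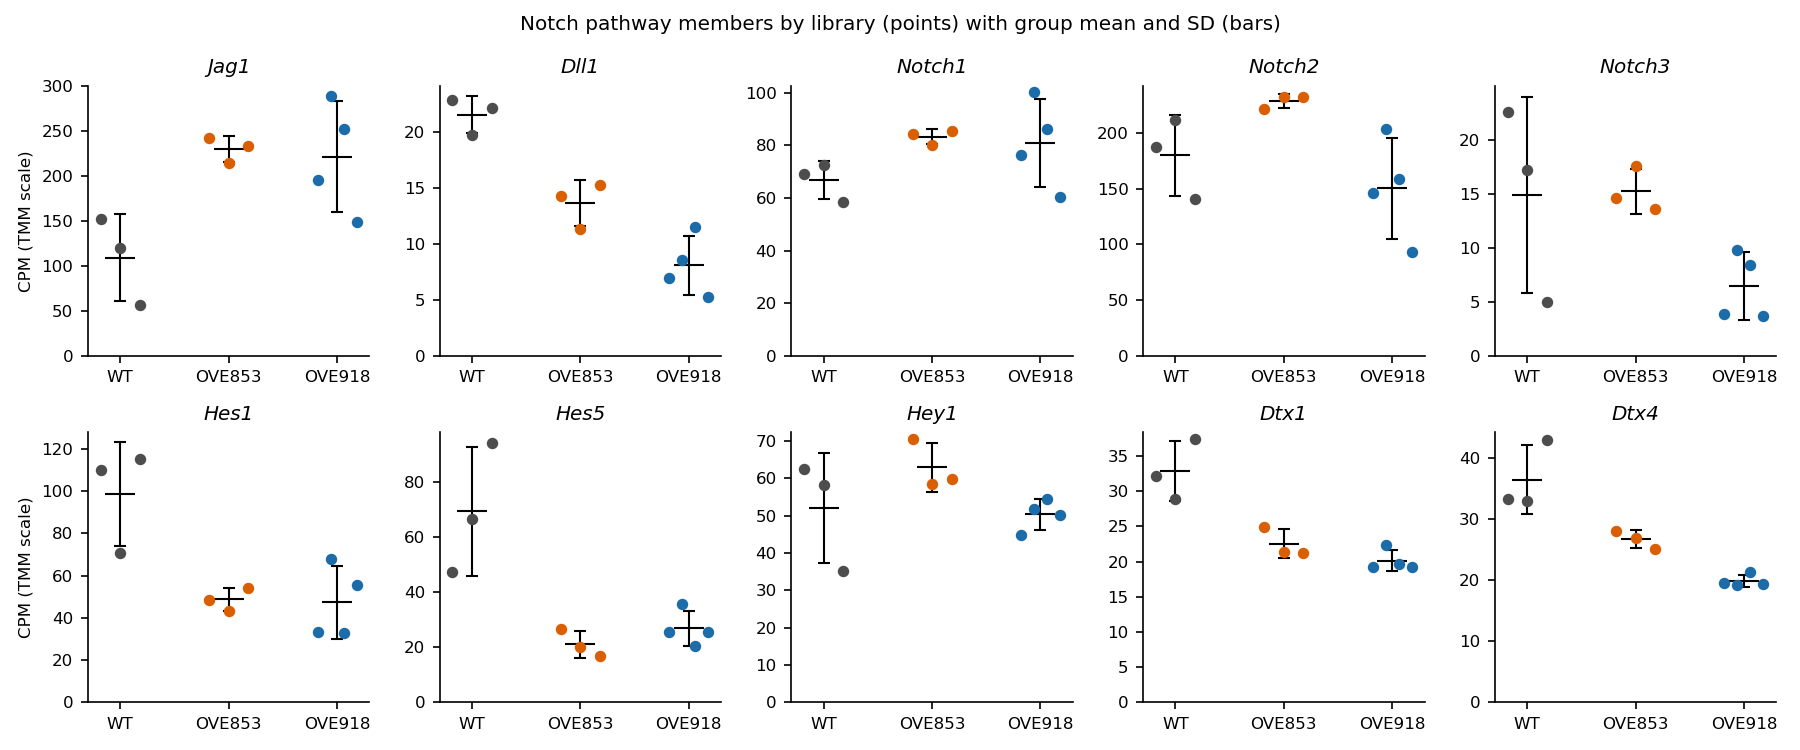
CPM of each member in every library (points), with the group mean and SD (bars), for 3 WT, 3 OVE853 and 4 OVE918 libraries. The Hes5 libraries of both lines lie below all WT libraries, whereas Notch1 to Notch3 and Hey1 overlap between OVE918 and WT.

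In OVE918, Jag1 was a higher and Dll1 a lower DEG, whereas in OVE853 neither ligand passed the FDR limit with all 10 libraries. Jag1 (chr2:136923373-136958693 on GRCm39, minus strand), the Jagged ligand of the lens, was at 152.1, 119.8 and 56.7 CPM in the 3 WT libraries, at 242.5, 214.9 and 234.0 in OVE853 and at 196.3, 288.8, 252.9 and 148.6 in OVE918. All OVE853 libraries were above all WT libraries, whereas the lowest OVE918 library lay just below the highest WT library. Its log2 fold change was 1.02 ± 0.31 (standard error, SE) in OVE918, a DEG by edgeR at an FDR of 0.0456, and 1.07 ± 0.33 in OVE853, which missed the limit at an FDR of 0.0509. Both FDR values lie near the limit. Without WT replicate 3, the WT library with the least Jag1, the log2 fold change in OVE918 was 0.70 (FDR 0.0633), and with OVE918 replicate 4 left out as well it was 0.85 (FDR 0.00469), under the fold minimum. The OVE918 call held without WT replicate 1 (1.33, FDR 0.0179) or without OVE918 replicate 4 (1.17, FDR 0.0360) and was lost on leaving out any of the other 8 libraries. The summed level of 12 lens fiber markers, a cell type that makes Jag1, was 6674 to 20465 CPM in WT, 12969 to 38643 in OVE853 and 17499 to 47075 in OVE918, with 0 of 11 tested markers DEGs, and their part in the Jag1 result was not tested. In OVE853, Jag1 became a DEG without WT replicate 1 (1.38, FDR 0.0207), without OVE918 replicate 4 (1.07, FDR 0.0418), and by DESeq2 (1.07, FDR 0.00572). It was also one by edgeR with 2 FPKM in at least 6 libraries (1.07, FDR 0.0490), the minimum named in the study's results.

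Dll1 (chr17:15587276-15597134, minus strand), a Delta ligand, was at 22.8, 19.7 and 22.1 CPM in WT, at 14.3, 11.3 and 15.3 in OVE853 and at 6.98, 8.57, 11.5 and 5.26 in OVE918. Every transgenic library was below every WT library, and 1 of the 4 OVE918 libraries, replicate 3, overlapped with OVE853. Dll1 was a DEG in OVE918 (log2 fold change -1.41 ± 0.22, FDR 0.00109) and not in OVE853 (-0.66 ± 0.23, FDR 0.0737). Between the lines the log2 difference was -0.75 ± 0.22 in OVE918 against OVE853 (unadjusted p = 0.00559, edgeR FDR 0.0984), so a difference between the lines did not pass the limit. The OVE918 call held without each library in turn (log2 fold change -1.63 to -1.25), and without OVE918 replicate 4 Dll1 passed the FDR limit in OVE853 under the fold minimum (-0.66, FDR 0.0285). The summed markers of the non-pigmented ciliary epithelium had the same order of groups as Dll1, with all 6 of the tested markers DEGs in OVE918 and 5 of 6 in OVE853, all lower, and 3 of 6 lower in OVE918 than in OVE853, and their part in the Dll1 result was not tested.

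The balance between the ligands was followed as the ratio of Jag1 to Dll1 FPKM in each library. It was 4.73, 4.32 and 1.82 in WT, 12.05, 13.5 and 10.9 in OVE853 and 19.9, 23.9, 15.6 and 20.02 in OVE918. The groups did not overlap, with means of 3.62 ± 1.57 (SD, n = 3), 12.1 ± 1.30 (n = 3) and 19.9 ± 3.39 (n = 4), and the ratio was taken up after the single values were known, so no test is given. The ratios of the other WT libraries, without replicate 3, were also below all transgenic ones.

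**Figure D3:**
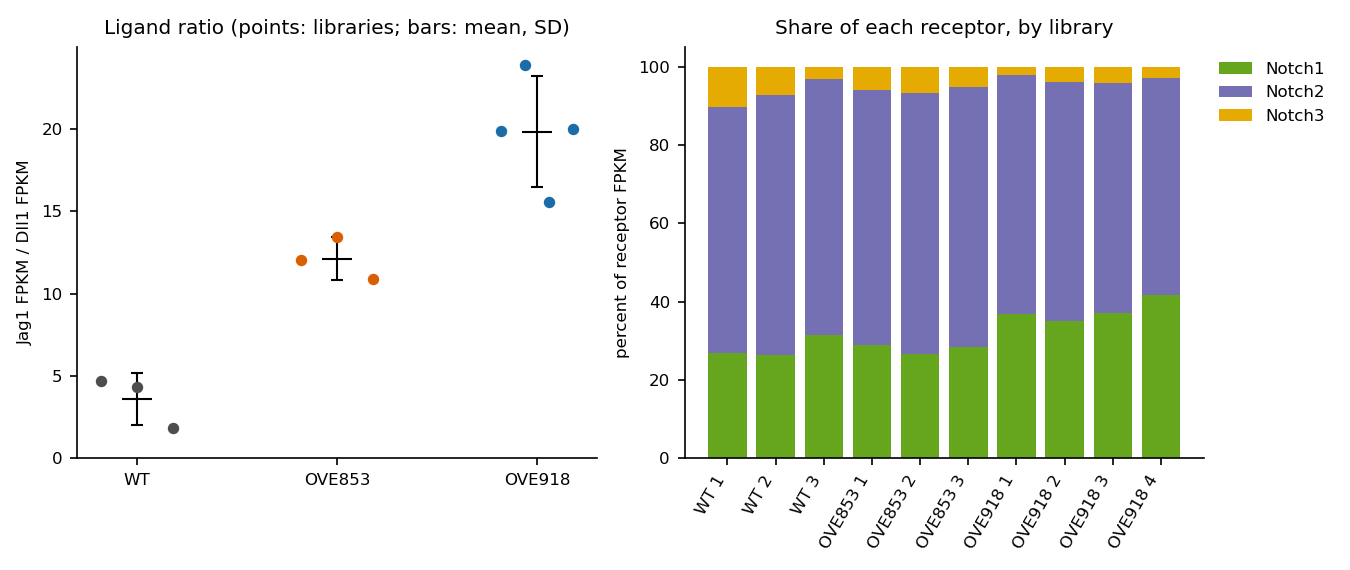
Left, ratio of Jag1 to Dll1 FPKM by library (points) with mean and SD (bars); right, percent of the summed FPKM of Notch1, Notch2 and Notch3 held by each receptor, 1 bar per library. The ratio is 1.82 to 4.73 in WT and 15.6 to 23.9 in OVE918, and Notch1 holds 26.4% to 31.5% of receptor FPKM in WT and 35.0% to 41.6% in OVE918.

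By edgeR with all 10 libraries, none of the 3 receptors was a DEG in any comparison. Notch1 (chr2:26347915-26406675, minus strand) was at 69.2, 72.6 and 58.5 CPM in WT, at 84.2, 80.3 and 85.5 in OVE853 and at 76.2, 100.5, 86.1 and 60.5 in OVE918. The OVE853 libraries lay above all WT libraries, by a log2 fold change of 0.32 ± 0.16 (edgeR FDR 0.181), and OVE918 overlapped with WT (0.28 ± 0.15, FDR 0.227). Notch2 (chr3:97920800-98057677, plus strand), the most abundant receptor by FPKM in every library, was at 187.4, 211.5 and 140.4 CPM in WT, at 221.0, 232.5 and 231.7 in OVE853 and at 145.9, 203.1, 158.6 and 93.5 in OVE918. OVE853 lay above WT by 0.35 ± 0.23 on the log2 scale (FDR 0.319), whereas OVE918 differed from WT by -0.26 ± 0.22 (FDR 0.453). All OVE918 libraries were below all OVE853 libraries, with a log2 difference of -0.60 ± 0.22 (unadjusted p = 0.0188, edgeR FDR 0.149). Without WT replicate 3 the log2 fold changes in OVE853 and OVE918 came to 0.23 (FDR 0.429) and 0.19 (FDR 0.507) for Notch1, and to 0.19 (FDR 0.653) and -0.41 (FDR 0.278) for Notch2. Without OVE918 replicate 4, Notch1 passed the FDR limit in OVE918 under the fold minimum (0.39, FDR 0.0390), and the Notch2 difference between the lines was -0.43 (FDR 0.215).

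Notch3 (chr17:32339794-32385893, minus strand), a receptor best known from mural cells of vessels, was at 22.6, 17.2 and 4.94 CPM in WT, at 14.6, 17.6 and 13.6 in OVE853 and at 3.90, 9.83, 8.36 and 3.69 in OVE918. The low value of WT replicate 3 lay within the OVE918 range, and the other WT libraries lay above it. With filterByExpr the edgeR log2 fold change was -1.18 ± 0.49 in OVE918 (FDR 0.129), 0.03 ± 0.52 in OVE853 (FDR 0.971) and -1.22 ± 0.49 in OVE918 against OVE853 (FDR 0.240). Of the 18058 genes of that fit, 8.79%, 6.89% and 0.244% were DEGs in these comparisons. Leaving out WT replicate 3 made Notch3 a DEG in OVE918 (-1.61, FDR 0.0112) and turned the direction in OVE853 (-0.42, FDR 0.530). The summed level of 7 mural cell markers, among which Kcnj8 stayed under 1 CPM in every library, was 109 to 138 CPM in WT, 137 to 180 in OVE853 and 119 to 150 in OVE918. Most of that sum was Pdgfrb (83.0 to 118 CPM in WT, 110 to 140.6 in OVE853 and 88.2 to 113.8 in OVE918), which fibroblasts also make. Of the other markers, Cspg4 was at 0.70 to 1.65, 3.85 to 8.27 and 5.61 to 11.3 CPM, and Des at 0.09 to 0.35, 1.04 to 3.88 and 2.83 to 5.72. Myh11 was at 0.38 to 1.16, 0.30 to 0.56 and 0.19 to 0.65 CPM, and Rgs5 at 2.77 to 8.23, 1.56 to 6.37 and 4.58 to 6.99. Abcc9 was at 5.54 to 14.4, 15.3 to 22.0 and 6.37 to 15.4 CPM. Their part in the Notch3 result was not tested.

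As a share of the FPKM of the 3 receptors together, Notch2 held 62.8% to 66.3% in WT, 65.3% to 66.5% in OVE853 and 55.4% to 61.01% in OVE918. Notch1 held 26.4% to 31.5%, 26.6% to 28.8% and 35.0% to 41.6%, and Notch3 held 3.13% to 10.3%, 5.29% to 6.84% and 2.21% to 4.22%. The OVE918 libraries were thus apart from both other groups in the shares of Notch1 and Notch2. With the exons of all transcripts Notch1 held a smaller share, 19.8% to 24.01% in WT, 19.98% to 21.8% in OVE853 and 26.96% to 32.8% in OVE918, and OVE918 was still apart. In FPKM with primary exons, the receptor sum was 24.4 ± 4.62 in WT, 32.4 ± 1.43 in OVE853 and 21.3 ± 7.26 in OVE918 (SD). For this sum all OVE853 libraries lay above all WT libraries, whereas OVE918 overlapped with WT.

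Of the HES and HEY repressors, Hes5 and Hes1 were reduced in both lines and Hey1 was not a DEG in either. Hes5 (chr4:155045373-155046828, plus strand), a direct RBPJ target whose promoter letters are printed above, was at 47.3, 66.6 and 93.9 CPM in WT, at 26.5, 19.97 and 16.8 in OVE853 and at 25.6, 35.8, 20.4 and 25.5 in OVE918. All 7 transgenic libraries were below the lowest WT library. Hes5 fell by 1.71 ± 0.27 on the log2 scale in OVE853 (edgeR FDR 0.00274) and by 1.37 ± 0.25 in OVE918 (FDR 0.00343). WT replicate 3, the library with the retinal neuron signal, had the highest Hes5, and without it the log2 fold changes were -1.43 (FDR 0.00348) and -1.09 (FDR 0.00753), still DEGs. Leaving out any other single library left Hes5 a DEG in both lines.

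Hes1 (chr16:29882134-29886643, plus strand), the HES repressor best known as a Notch target in the lens, was at 110.1, 70.6 and 115.2 CPM in WT, at 48.5, 43.2 and 54.3 in OVE853 and at 33.2, 67.8, 32.8 and 55.7 in OVE918. All transgenic libraries lay below WT, although OVE918 replicate 2 lay just under WT replicate 2. Hes1 differed from WT by -1.02 ± 0.29 (log2) in the OVE853 line (edgeR FDR 0.0388) and by -1.06 ± 0.26 in OVE918 (FDR 0.0193), both close to the fold minimum. The OVE853 call was lost on leaving out WT replicate 1 (-0.93, FDR 0.0661), WT replicate 3 (-0.89, FDR 0.108) or OVE853 replicate 1 (-1.02, FDR 0.110), 2 (-0.94, FDR 0.117) or 3 (-1.11, FDR 0.0845). The OVE918 call was lost on leaving out WT replicate 1 (-0.97, FDR 0.0490), WT replicate 3 (-0.93, FDR 0.0621), OVE918 replicate 1 (-0.92, FDR 0.0423) or OVE918 replicate 3 (-0.92, FDR 0.0471). Without both WT replicate 3 and OVE918 replicate 4, Hes1 was at -0.89 (FDR 0.166) in the OVE853 line and at -1.02 (FDR 0.138) in the OVE918 line.

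Hey1 (chr3:8726956-8732385, minus strand), a HEY repressor, was at 62.5, 58.3 and 35.2 CPM in WT, at 70.5, 58.5 and 59.95 in OVE853 and at 44.9, 51.9, 54.5 and 50.1 in OVE918. Both lines overlapped with WT, with log2 fold changes of 0.28 ± 0.18 (edgeR FDR 0.301) and -0.04 ± 0.17 (FDR 0.884). In OVE918 the sign turned with the left-out library (-0.26 to 0.11), and without WT replicate 3 the fold changes came to 0.06 (FDR 0.776) for OVE853 and to -0.26 (FDR 0.136) for OVE918. With all libraries, all OVE918 libraries were below all OVE853 libraries (-0.32 ± 0.17, FDR 0.277). The FPKM ratio of Hes5 to Hey1 was 2.30 to 8.11 in WT, 0.852 to 1.14 in OVE853 and 1.14 to 2.10 in OVE918, so that the WT libraries were apart from the transgenic ones. That of Hes1 to Hey1 was 3.08 to 8.33 in WT, 1.75 to 2.30 in OVE853 and 1.53 to 3.33 in OVE918, which overlapped with WT.

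Hes1 and Hes5 are also expressed in the retina, including its Müller glia. Of 7 tested Müller glia markers, 5 were lower DEGs in OVE853 and 4 in OVE918. Glul was at 329.8 to 1060 CPM in WT, 169.0 to 189.8 in OVE853 and 83.1 to 136.1 in OVE918, and Rlbp1 at 29.9 to 209.8, 6.98 to 11.7 and 8.60 to 25.7 CPM. Dkk3 alone, which lens epithelium also makes, held 3052 to 3735 of the summed 3673 to 5639 CPM in WT. Optc, a ciliary epithelium gene, was at 388 to 873 CPM in WT, 168 to 246 in OVE853 and 40.3 to 98.7 in OVE918, and Best2 at 31.0 to 51.4, 5.55 to 9.15 and 0.877 to 3.98 CPM. Markers of both tissues were thus lower in the groups in which Hes1, Hes5 and Dll1 were lower. The retinal neuron markers summed to 172 to 1232 CPM in WT, 46.5 to 108 in OVE853 and 40.7 to 197 in OVE918. The part of these tissues in the Hes1, Hes5 and Dll1 results was not tested. Of 7 cornea markers, Kera, of the stroma, was at 0 in every library, and Aldh3a1, the main contributor, was at 236 to 1611 CPM in WT, 62.6 to 92.4 in OVE853 and 26.3 to 80.5 in OVE918. Krt12 was at 0.65 to 4.91 CPM in WT and at 0 in every OVE853 and OVE918 library. Krt15 was at 1.83 to 11.2, 1.57 to 2.55 and 0.63 to 1.67 CPM, and Krt5 at 0.27 to 2.21, 0 to 0.24 and 0.04 to 0.28. Krt14 was at 0.04 to 0.23, 0.03 to 0.24 and 0.22 to 1.06 CPM, and Trp63 stayed under 1 CPM. The summed markers of photoreceptors, pigmented epithelium, endothelium and macrophages were each at or below 146.7 CPM in every library.

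Dtx1 and Dtx4 encode Deltex ubiquitin ligases, which bind the intracellular part of Notch and act on its trafficking, and Dtx1 is itself switched on by Notch in lymphocytes. Both were lower in both lines and passed the FDR limit but not the fold minimum. Dtx1 (chr5:120818248-120850879, minus strand) was at 32.2, 28.9 and 37.4 CPM in WT, at 24.9, 21.4 and 21.3 in OVE853 and at 19.3, 22.3, 19.6 and 19.2 in OVE918. Dtx4 (chr19:12443699-12479479, minus strand) was at 33.4, 33.0 and 43.0 CPM in WT, at 28.1, 27.0 and 25.2 in OVE853 and at 19.6, 19.2, 21.3 and 19.5 in OVE918. For both genes every transgenic library was below every WT library. The log2 fold change of Dtx1 was -0.54 ± 0.12 in OVE853 (edgeR FDR 0.0126) and -0.71 ± 0.11 in OVE918 (FDR 0.00116). For Dtx4 it came to -0.45 ± 0.11 in OVE853 (FDR 0.0258) and to -0.88 ± 0.11 in OVE918 (FDR 0.000260), the smallest FDR of any member. With each library left out in turn the FDR in OVE918 stayed at or below 0.00529 for Dtx1 and 0.00134 for Dtx4. In OVE853 the FDR of Dtx4 was 0.0610 without WT replicate 3, and the highest over all left-out libraries was 0.0547 for Dtx1 and 0.0953 for Dtx4. WT replicate 3 held the highest level of both genes, and without it the Dtx1 fold changes came to -0.44 (FDR 0.0309) for OVE853 and to -0.60 (FDR 0.00295) for OVE918.

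**Figure D4:**
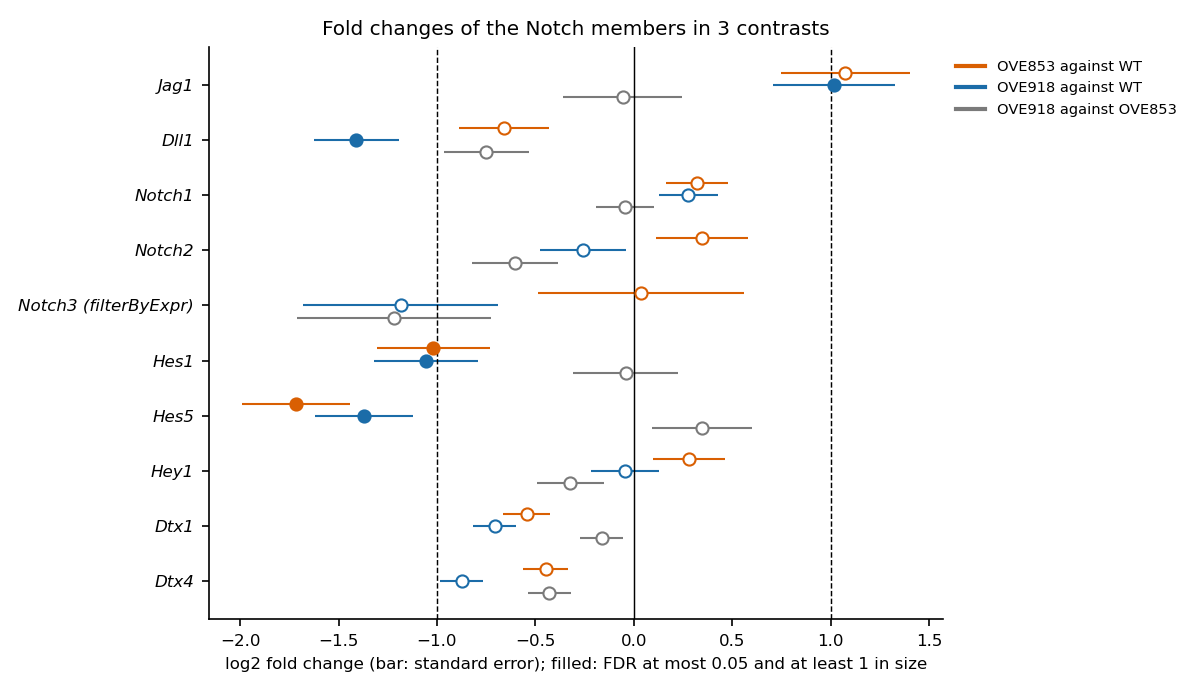
Log2 fold change of each member (points) with its standard error (bars) in the 3 comparisons, filled where the gene was a DEG, with dashed lines at the fold minimum. Hes1 and Hes5 are filled on the left for both lines, Dll1 on the left and Jag1 on the right for OVE918, and no point of OVE918 against OVE853 is filled.

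The lines were also compared with each other, since Tgfb1 was higher in OVE918 than in OVE853 (log2 fold change 1.15 ± 0.11, edgeR FDR 0.00388). Of the 9 tested members, 0 were DEGs by edgeR, by DESeq2 or by limma voom, and 0 passed the edgeR FDR limit alone, where 0.487% and 1.32% of all tested genes did. An unadjusted p under 0.05 was reached by 3 of 9, Dll1, Notch2 and Dtx4, and by 22.9% of all tested genes. The Dtx4 difference was -0.43 ± 0.11 (FDR 0.0766), with all OVE918 libraries below all OVE853 libraries, and without WT replicate 3 its FDR was 0.0242 at a fold change still under the minimum. Jag1 (-0.06 ± 0.30), Notch1 (-0.04 ± 0.15), Hes1 (-0.04 ± 0.27), Hes5 (0.35 ± 0.25) and Dtx1 (-0.16 ± 0.11) differed by at most 1.5 times their SE, which does not show that the levels were equal. Between OVE853 and WT, 8 of 9 tested members had groups that did not overlap (3 above, 5 below), where 45.4% of all genes did (23.4% above, 22.0% below). Between OVE918 and WT these were 5 of 9, all below, where 27.2% of all genes did (15.0% below), and between the lines 3 of 9, all below (Notch2, Hey1 and Dtx4), where 29.5% did (16.2% below).

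Beyond the 10 members, 67 further pathway genes were listed by role, of which 49 were tested, 13 passed filterByExpr only and 5 (Dll3, Dlk2, Hes2, Hes3 and Helt) were below both filters. Of the 49, 0 were DEGs in any of the 3 comparisons by edgeR, DESeq2 or limma voom, and an unadjusted edgeR p under 0.05 was reached by 19 in OVE853, by 13 in OVE918 and by 9 between the lines, where 34.1%, 33.2% and 22.9% of all tested genes reached it. The FDR limit alone was passed by 7 in OVE853 (4 higher, 3 lower), by 6 in OVE918 (3 higher, 3 lower) and by 0 between the lines, next to 15.8%, 19.0% and 1.32% of all tested genes. Their median log2 fold change was 0.17 in OVE853 and -0.00 in OVE918. The genes named next include 1 per role and, chosen after their values were seen, the others that passed a limit and a few core genes of the pathway.

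In the remaining ligand and receptor group, with 2 of 7 tested, Dner, a Delta-related protein of neurons, was at 21.2 to 50.5 CPM in WT, 21.7 to 23.3 in OVE853 and 18.3 to 29.4 in OVE918 (FDR 0.134 and 0.248). Jag2, the other Jagged ligand, had log2 fold changes of -0.19 and -0.01. Among the enzymes that modify Notch or help ligand endocytosis (8 of 11 tested), Lfng, the fringe glycosyltransferase that alters the response of Notch to Jagged and Delta ligands, passed the FDR limit in both lines. It was at 114.2 to 130.8 CPM in WT, 159.7 to 178.3 in OVE853 and 170.7 to 189.8 in OVE918 (log2 fold change 0.44 ± 0.09, FDR 0.0103, and 0.50 ± 0.09, FDR 0.00235). All transgenic libraries lay above all WT libraries.

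The proteases that cleave Notch (8 of 10 tested) gave values in both directions. Adam10, the surface protease of the first cut, had a log2 fold change of 0.48 in OVE853 (FDR 0.0423) and 0.46 in OVE918 (FDR 0.0339). Psen2, a catalytic γ-secretase subunit, had -0.53 (FDR 0.0339) and -0.66 (FDR 0.00618). The γ-secretase subunits Aph1b and Aph1c, which passed filterByExpr only, were DEGs in OVE918 (-1.30, FDR 0.00952, and -1.70, FDR 0.000669). They are near-identical neighbours that can share reads, so their separate values are uncertain. With them, Dlk1, a Delta-like protein without a canonical Notch-binding domain, was a DEG at 0 to 2 counts per library in WT and 7 to 86 in OVE918. Its OVE918 mean was 16.8-fold over a floor of 3 counts per WT library, with a wide spread between the OVE918 libraries (0.30 to 3.97 CPM). In OVE853 Dlk1 had 10 to 19 counts per library and was not a DEG (FDR 0.0538).

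Of the RBPJ activator genes (8 of 8 tested), Kat2a, a histone acetyltransferase, passed the FDR limit in OVE853 (0.29, FDR 0.0469) and not in OVE918 (0.15, FDR 0.248). Rbpj itself was at 14.1 to 15.0 CPM in WT, 18.4 to 20.6 in OVE853 and 12.5 to 16.8 in OVE918, with log2 fold changes of 0.40 (FDR 0.0517) and 0.05 (FDR 0.816). Of the RBPJ corepressor genes (12 of 13 tested), Tle1, a Groucho corepressor, had -0.49 (FDR 0.0316) and -0.57 (FDR 0.00815), and Hdac2, a histone deacetylase, had 0.29 (FDR 0.0658) and 0.41 (FDR 0.0109). Among trafficking and degradation genes (7 of 9 tested), Dtx3, another Deltex, had 0.40 in OVE853 (FDR 0.0226) and 0.21 in OVE918 (FDR 0.147), opposite in sign to Dtx1 and Dtx4. Of the other HES and HEY relatives (4 of 9 tested), Bhlhe41, a circadian repressor, was at 31.98 to 56.9 CPM in WT, 19.9 to 24.3 in OVE853 and 21.5 to 27.5 in OVE918. Its log2 fold changes of -0.92 (FDR 0.0110) and -0.81 (FDR 0.00945) were under the fold minimum, and in OVE853 it became a DEG without WT replicate 1 (-1.08) or WT replicate 2 (-1.01). The feedback inhibitor Nrarp and the repressor Heyl, both Notch targets that passed filterByExpr only, had log2 fold changes of 0.60 (FDR 0.103) and 0.91 (FDR 0.0924) in OVE918.

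**Figure D5:**
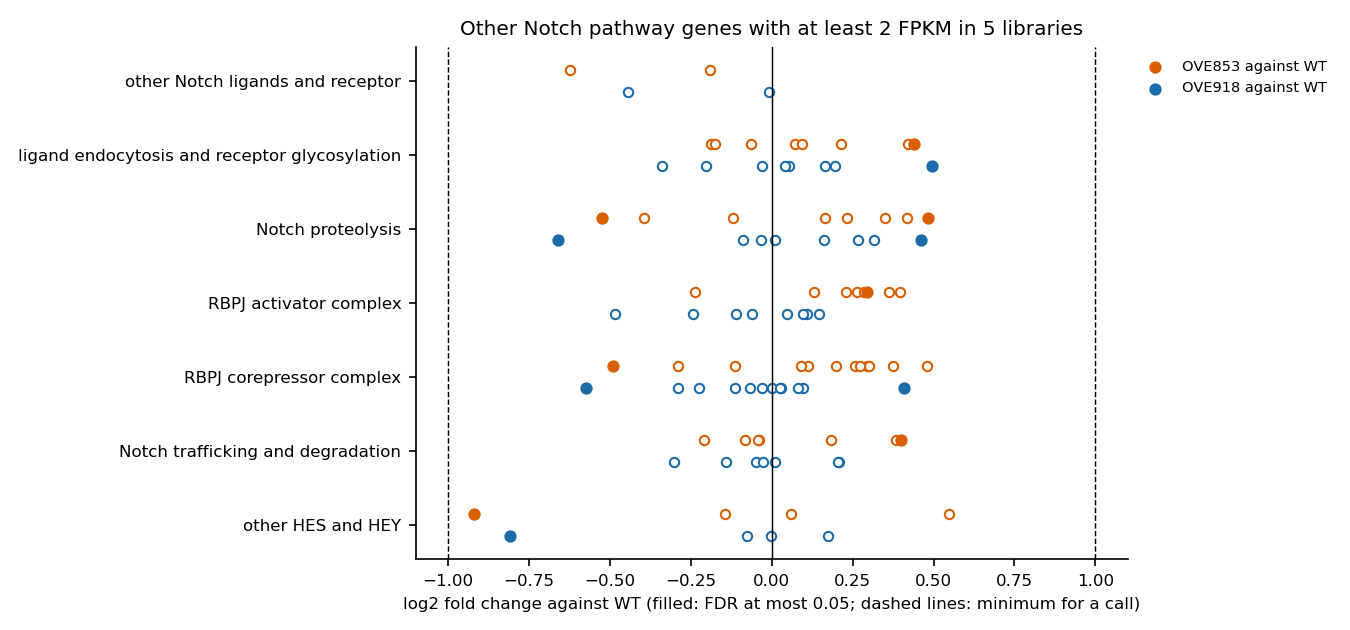
Log2 fold change against WT of the 49 tested pathway genes beyond the members, 1 point per gene and line, grouped by role and filled at an FDR of at most 0.05; dashed lines mark the fold minimum. No point reaches a dashed line, and Bhlhe41 at -0.92 lies nearest to one.

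The members were also set against each other and against all other tested genes by Pearson's r of log2 CPM over the 10 libraries. These are descriptions, since the libraries share group, depth and tissue makeup. The closest pairs of members were Dtx1 with Dtx4 (r = 0.924), Dll1 with Dtx4 (r = 0.896), Hes5 with Dtx1 (r = 0.879) and Hes1 with Dtx1 (r = 0.875). Jag1 went with Notch1 (r = 0.865) and opposite to Hes5 (r = -0.817). Among 11093 other genes, those most like Jag1 were Bach2 (r = 0.993), Zc3hav1l (0.990) and Sdk2 (0.989), and those most like Dll1 were Pm20d1 (0.975), Trim35 (0.973) and Lrp5 (0.972). Those most like Hes1 were Hemk1 (0.964), Stx1a (0.946) and Cenpx (0.927), and those most like Hes5 were Aldh7a1 (0.969), Gatd3a (0.955) and Rcan1 (0.954).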

How the data were processed

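Messenger RNA of pooled lens epithelia was sequenced as 150-base paired-end reads. Reads were trimmed (Cutadapt 5.2), mapped to GRCm39 (STAR 2.7.11b) and counted per gene by the authors (featureCounts 2.0.8) in reverse-stranded mode, per the submitters' processing notes and the study's methods. The authors deposited whole-number counts per gene without normalization. From these counts, FPKM used library totals and the summed exons of GENCODE vM39 primary transcripts (matched for 43252 genes by symbol and 22 by synonym; 7489 had none), whereas the study used RefSeq exon lengths. Genes with at least 2 FPKM in at least 5 of 10 libraries were fitted in R 4.3.3 with edgeR 4.0.16 (TMM, robust quasi-likelihood, 1 coefficient for each of 3 groups, no covariate), as in the study's methods. The study's results name 6 samples as this minimum, which was run as an alternative. CPM are on the TMM scale (factors 0.880 to 1.11). The 10 members, the pathway lists and the marker lists were chosen with earlier results of these data known. Named genes were the members, for the other pathway genes those called in at least 1 comparison or else 1 per role, with further pathway genes (those past the FDR limit alone, those called with filterByExpr, and Jag2, Rbpj, Nrarp and Heyl) named after their values were seen, the 3 genes most like Jag1, Dll1, Hes1 and Hes5, markers that moved with a member or were at 0, and Tgfb1.

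On simulated counts for 11094 genes with 200 changed 4-fold, 199 were recovered in OVE853 against WT and 199 in OVE918 against WT, with 0 false calls. Every simulated gene had the same dispersion, and libraries differed only in size and in the changed genes. The simulation thus checks the code and does not bear on calls near the limits, such as those of Jag1 and Hes1. The 12 within-group pairs of libraries differed beyond sampling noise (chi-square per degree of freedom 12.8 to 129), so none was counted as a duplicate. Alternatives were other normalization, filters, exon lengths, thresholds, groups in the fit and dispersion settings, DESeq2 1.42.0, limma 3.58.1 voom, a replicate block, and leaving out libraries. RNA integrity and litters were not modelled. Promoter windows came from RefSeq (GRCm38.p6).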

Additional observations from a re-analysis of the deposited data

Results flagged for a closer look

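Dtx1 in OVE918 was at 22.3 CPM in replicate 2, against 19.2 to 19.6 CPM in the other 3 libraries, a gap that passed Dixon's 95% critical value for 4 samples. It was the only member of 10 tested for this in OVE918, where chance flags about 1 in 20. Replicate 2 was also the highest OVE918 library for Jag1, Notch1, Notch2, Notch3, Hes1 and Hes5. The WT and OVE853 groups, with 3 libraries each, were not tested.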

How the results depend on the processing

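Hes5 in both lines and Dll1 in OVE918 stayed DEGs under every alternative run and every left-out library. Over the fold changes of the members, leaving out 1 library kept the direction and call in 270 cases, ended a call in 17, made one in 3 and turned a sign in 10; the other alternatives did so in 294, 13, 8 and 6. The number of members called in OVE853 (2) was 1 with limma voom, with no filter on low counts, with the replicate block and without both WT replicate 3 and OVE918 replicate 4 (an alternative chosen after seeing the data), and 4 by the FDR alone. Jag1 was called in OVE853 as well, beside Hes5 and Hes1, with DESeq2, 6 libraries at 2 FPKM, all-transcript lengths and no robust estimation. The number in OVE918 (4) was 2 with no filter, with the block and without both libraries, and 6 by the FDR alone. With filterByExpr, only the groups compared and voom, Jag1 was the member lost in OVE918. With single libraries left out these were 1 to 3 and 2 to 4 (1 without WT replicate 3 or any OVE853 library, and 2 without WT replicate 3, OVE918 replicate 1 or OVE918 replicate 3). The number of other pathway genes called (0) was 7 in OVE853 by the FDR alone, and in OVE918 3 with filterByExpr, 3 with no filter and 6 by the FDR alone, and 0 to 1 in OVE853 with single libraries left out. All genes called numbered 491 in OVE853 (filterByExpr 1244, no filter 1061, FDR alone 1751; 334 to 664 with single libraries left out), 620 in OVE918 (1587, 1548 and 2110; 522 to 728) and 54 between the lines (DESeq2 107, voom 124, only the groups compared 97, FDR alone 146, block 28; 6 without OVE853 replicate 1 to 93 without WT replicate 3). The fold changes whose sign turned were near 0 with all libraries, although turned values reached -0.42. They were Notch3 in OVE853 (voom -0.12, both libraries out -0.39, single libraries out -0.42 to 0.47), Hey1 in OVE918 (-0.26 to 0.11), and, between the lines, Jag1 (block 0.097, both out 0.095, single -0.21 to 0.094), Notch1 (block 0.064, both out 0.074, single -0.17 to 0.073) and Hes1 (single -0.27 to 0.10). The causes were not tested.

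Replicate numbers did not pair the libraries. Of 9 same-numbered pairs, 0 had a correlation of their deviations over 0.1 (-0.30 to 0.08). With the replicate block, Jag1 in OVE918 (1.23, FDR 0.0630) and Hes1 in OVE853 (-1.02, FDR 0.106) and OVE918 (-1.17, FDR 0.0944) were no longer called. Jag1 in OVE918 also lost its call with filterByExpr (FDR 0.0522), no filter (FDR 0.155), only the groups compared (FDR 0.10) and voom (log2 fold change 0.98), while in OVE853 it gained one with 6 libraries at 2 FPKM (FDR 0.0490), all-transcript lengths (FDR 0.0488) and no robust estimation (FDR 0.0468). Notch3 in OVE918 kept its direction and call in 5 of 8 alternatives. Those that changed it included DESeq2 (FDR 0.0470) and voom (FDR 0.0264), with which it became a DEG. Between the lines Notch3 became a DEG with voom (FDR 0.0470). The precision is limited by the 3 or 4 pools in a group and, for Notch3 and Dll1, by levels of 3.69 to 22.8 CPM.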
